A study of Mus musculus with 12 samples.

Results

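Glucocorticoid responsive genes and metallothioneins were followed in the mouse pancreas through 10 genes picked by symbol from the 40840 genes of the count table. They were Fkbp5, Tsc22d3, Sgk1, Klf9, Zbtb16, Mt1, Mt2, Errfi1, Pdk4 and Angptl4, and each had a row in the table. RNA with poly(A) tails was sequenced from whole pancreas of male C57BL/6J mice, a common inbred strain, kept on 12 h of light and 12 h of darkness with free access to chow. The Young group was killed at 5 months and the Old group at 25 months, after 4 weeks of single housing, and no genetic change or drug was applied to either. Each age had 1 library at each of 6 collection times, 4, 8, 12, 16, 20 and 24 h, labelled in zeitgeber time, the hours after lights come on. Tissue was collected in darkness. The time already spent in the dark was not given in the sources used here, and hours are those of the labels.

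Depth was 1030189 to 1404038 counts for 11 of the libraries, while Young 4 h had 2918805. In the 11, a single count equals 0.712 to 0.971 counts per 1000000 of the library total (CPM), and 3 counts, the floor used for a gene with no count, equal 2.14 to 2.91 CPM. Acinar cell markers, which define the exocrine pancreas, summed to 205338 to 291788 CPM in the 11 and to 122867 CPM in Young 4 h. Young 4 h also held 1636 CPM of central neuron markers against 0 to 7.06 CPM in the 11, and 2257 CPM of central glia markers against 29.5 to 53.4 CPM, so its label and its transcripts disagree and tests are given with all 12 libraries and with the 11 others. Whether a library holds RNA of 1 mouse or of several is not in the labels. No time was repeated within an age, so p-values of the fits rest on the spread of single libraries around a fitted curve. In edgeR this spread is moderated over all genes tested, with 25.3 degrees of freedom for each tested member on the 11 libraries. The SE of amplitudes and peaks uses each gene's own spread, with 7 degrees of freedom for both ages together on the 11. The edgeR p-values and these SE need not rank genes alike. In bulk tissue, fewer cells of a type and less RNA per cell cannot be told apart.

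Glucocorticoids are steroid hormones of the adrenal cortex, chiefly corticosterone in mice, whose release has a daily rhythm that in nocturnal rodents crests near the start of the dark, active phase. The hormone binds the glucocorticoid receptor, which is held in the cytoplasm by Hsp90 chaperones, moves to the nucleus and binds glucocorticoid response elements near its target genes. Metallothioneins are small cysteine-rich proteins that bind zinc and copper, are abundant in pancreatic acinar cells, and are induced by zinc through the factor Mtf1 and by glucocorticoids.

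The first question was which of the 10 genes followed a 24 h curve shared by both ages. Without Young 4 h, 4 of the 7 members with enough counts to be tested did so, Fkbp5, Zbtb16, Klf9 and Mt1, in edgeR's quasi-likelihood test at a Benjamini-Hochberg adjusted p under 0.05. Over all 5852 genes tested, 1.49% were called. With all 12 libraries none of the 7 members was called, and 0.155% of 5808 genes were. An unadjusted p under 0.05 was found there for 6 members and for 611 of the 5808 genes. DESeq2 on the 12 called 2 members, Fkbp5 and Zbtb16, and 40 genes in all. Errfi1, Pdk4 and Angptl4 had too few counts for these tests. DESeq2 called none of the 7 members on the 11 libraries, where limma-voom called 4. By edgeR all 7 had an unadjusted p under 0.05 on the 11, as had 698 of 5852 genes. The amplitude of a curve is the distance from its mean to its peak in log2 CPM.

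Fkbp5 encodes FKBP51, a co-chaperone of Hsp90 that lowers the hormone affinity of the glucocorticoid receptor and is itself among the most responsive receptor targets. The gene spans chr17:28398753-28486149 (RefSeq, GRCm38.p6). GENCODE places an antisense gene, AC154912.1, across it, and no source used here gives the strand setting of the counting, so reads of the pair cannot be told apart. In Young its level was 11.6, 16.6, 62.9, 16.5, 11.1 and 5.30 CPM at 4, 8, 12, 16, 20 and 24 h. In Old it was 15.0, 5.49, 46.4, 14.0, 10.4 and 5.13 CPM at the same times. The 12 h library of each age stood above all others, resting on 74 counts in Young and 60 in Old, and the 24 h library was the lowest of each age. Against the higher of its neighbours at 8 and 16 h, the 12 h level was 3.79 times higher in Young and 3.31 times higher in Old. Without Young 4 h the fitted amplitude was 1.04 ± 0.33 (SE, n = 11 libraries) with a peak at 12.6 ± 1.26 h, and the edgeR adjusted p was 0.00634. This p was 0.131 with all 12 libraries and 0.0875 by DESeq2 on the 11. The call was lost without Young 12 h or without Old 12 h, where the adjusted p by edgeR reached 0.162, and it was kept without each of the other 9.

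Zbtb16 encodes PLZF, a zinc finger repressor that glucocorticoids and progestins strongly induce in several tissues, from a gene at chr9:48651797-48836225 (same source). Its level in Young was 13.7, 20.8, 40.8, 18.4, 17.1 and 1.51 CPM at 4 to 24 h in steps of 4 h. In Old it was 12.8, 15.7, 43.3, 5.16, 9.58 and 5.13 CPM. As with Fkbp5, the 12 h library was the highest of each age, at 48 counts in Young and 56 in Old, and the 24 h library was the lowest, at 2 and 6 counts, in Old level with the 7 counts of 16 h. The amplitude without Young 4 h was 1.13 ± 0.36 (SE, n = 11), the peak lay at 11.5 ± 1.31 h, and the edgeR adjusted p was 0.0164. The adjusted p was 0.234 with all 12 libraries, 0.261 by DESeq2 on the 11, and up to 0.269 by edgeR when Young 12 h, Young 24 h or Old 12 h was left out, each of which ended the call.

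Fkbp5 and Zbtb16 were the 2 of 7 tested members whose 12 h libraries both exceeded each of the other 9 of the 11, against a background of 3.96% of all genes tested. That pattern was picked out after the values were seen. Marker sums of other cell types in the 12 h libraries lay within the range of the other 9, apart from skeletal muscle markers, which summed to 1.70 CPM in Young 12 h, the highest of the 11, with Acta1, Tnnt3 and Mylpf at 0 in all 11. Adipocyte markers summed to 34.9 CPM in Young 12 h and 20.9 CPM in Old 12 h, against 7.06 to 83.0 CPM in the other 9.

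**Figure D1:**
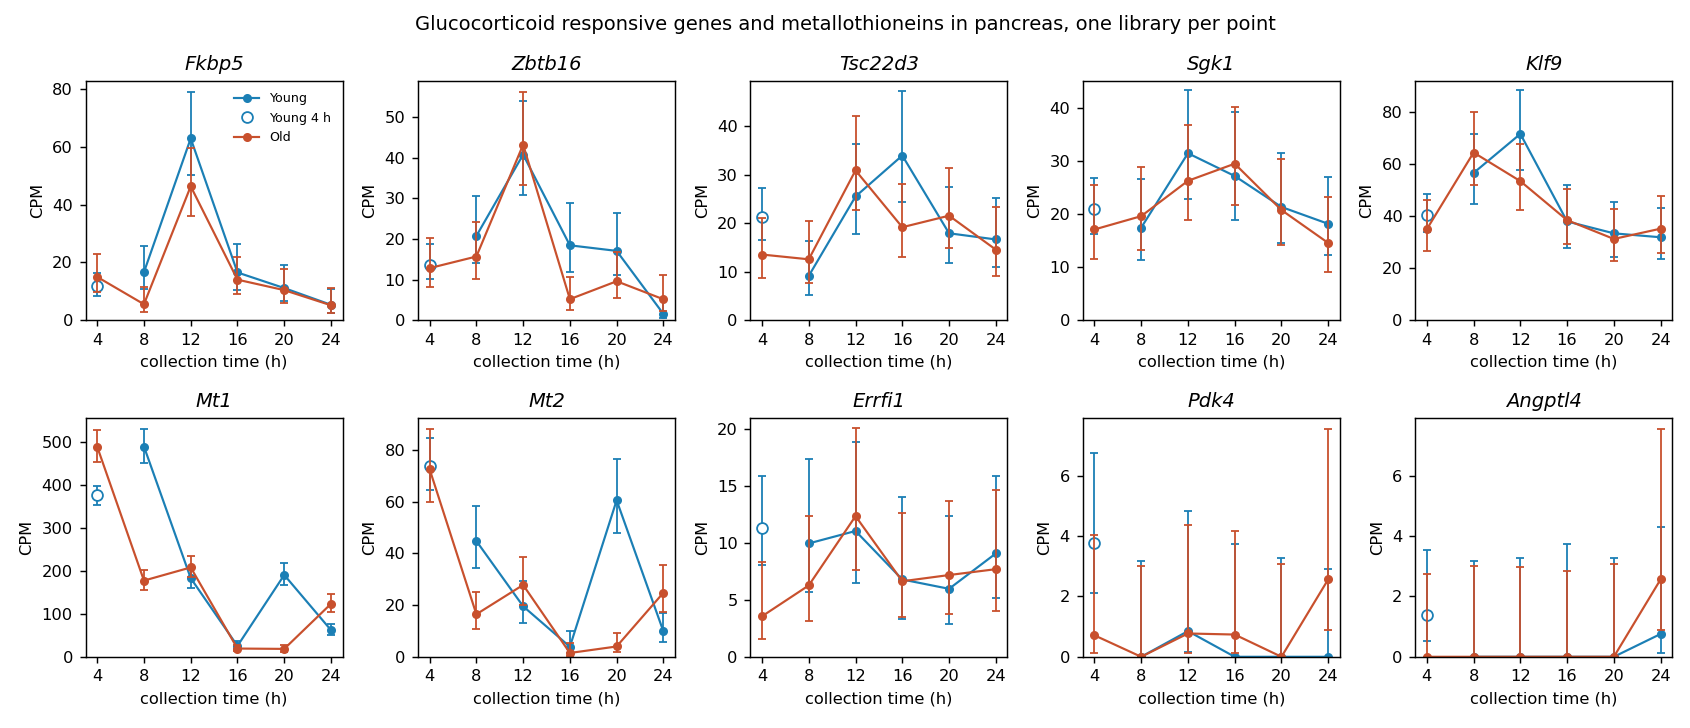
Level of each of the 10 genes in CPM (vertical axis, linear, a scale for each gene) against collection time in h, 1 library per point, Young in blue and Old in red-orange, with bars for the 95% Wilson interval of the count and an open circle for Young 4 h. Fkbp5 and Zbtb16 stand highest at 12 h in both ages (62.9 and 46.4 CPM, 40.8 and 43.3 CPM), and Mt1 and Mt2 are lowest in Old at 16 and 20 h.

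Klf9 encodes a Krüppel-like repressor that glucocorticoids induce directly and that is also tied to the circadian clock, from a gene at chr19:23141226-23168129 (RefSeq, GRCm38.p6). In Young it stood at 40.4, 56.5, 71.5, 37.9, 33.3 and 31.8 CPM at 4 to 24 h. In Old it stood at 34.9, 64.3, 53.3, 38.3, 31.1 and 35.1 CPM. The 8 h and 12 h libraries were the highest pair of each age, with 12 h first in Young and 8 h first in Old. Its amplitude was 0.47 ± 0.07 (SE, n = 11 without Young 4 h), its peak was at 9.89 ± 0.65 h, and its edgeR adjusted p was 0.0229, or 0.37 with all 12 libraries and 0.0566 by DESeq2 on the 11. The call was lost in 6 of 11 fits that left out 1 library, those without a Young library of 8, 12 or 24 h or an Old library of 8, 12 or 20 h, where the edgeR adjusted p reached 0.138.

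Sgk1 encodes a serum and glucocorticoid regulated kinase that acts on ion channels and transporters. Several start sites of the gene have a promoter window in RefSeq, and 1 of them holds an idealised palindromic glucocorticoid response element, a pair of AGAACA half-sites facing each other across 3 bases, which 3 of 32851 promoter windows of that length hold (0.00913%). The window is shown because no other member's window holds the palindrome, with the element in capitals. It lies on the plus strand at chr10:21993640-21993889 (RefSeq, GRCm38.p6), inside the annotated gene and 5′ of an internal start.
Sgk1: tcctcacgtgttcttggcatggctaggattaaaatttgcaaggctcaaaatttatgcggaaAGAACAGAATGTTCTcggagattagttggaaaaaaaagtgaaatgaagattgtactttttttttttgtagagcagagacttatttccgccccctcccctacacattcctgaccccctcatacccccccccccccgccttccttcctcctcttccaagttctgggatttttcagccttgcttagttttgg
Searches used the 250 bases before each start, on both strands. The shorter half-site AGAACA, part of the palindrome, is held by 16.1% of windows, among them 1 of Tsc22d3 and 3 of Sgk1, and CACGTG, the E-box of clock factors, is held by 6.02%, among them the windows of Fkbp5 and the one of Sgk1 shown. A match describes letters only, and windows depend on the annotated start. The annotation behind the counts was not given in the sources used here and may place the starts elsewhere.

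Sgk1 levels ran from 14.5 to 31.5 CPM over the 12 libraries. They were 20.9, 17.4, 31.5, 27.2, 21.3 and 18.2 CPM in Young at 4 to 24 h, and 17.1, 19.6, 26.3, 29.5, 20.8 and 14.5 CPM in Old. The 12 h and 16 h libraries were the highest pair of each age, above the other 7 of the 11. The amplitude without Young 4 h was 0.43 ± 0.07 (SE, n = 11) with a peak at 14.7 ± 0.55 h, and the edgeR test did not call it (adjusted p = 0.22; 0.35 with all 12 libraries).

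Tsc22d3 encodes GILZ, a leucine zipper protein through which glucocorticoids restrain inflammatory signalling. Young libraries held 21.2, 9.13, 25.5, 34.0, 17.9 and 16.6 CPM at 4 to 24 h. Old libraries held 13.5, 12.5, 30.9, 19.2, 21.6 and 14.5 CPM. The highest Young library was that of 16 h and the highest Old library that of 12 h, and the 8 h library was the lowest of each age. The amplitude without Young 4 h was 0.59 ± 0.16 (SE, n = 11), the peak 16.2 ± 0.93 h, and the edgeR adjusted p 0.148, or 0.377 with all 12 libraries, so no curve was called.

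Mt1 and Mt2 encode the metallothioneins made in most tissues, and they lie 5315 bases apart on chromosome 8 in the same direction, Mt2 first (RefSeq, GRCm38.p6). Stretches near their starts are shown because the levels of both genes varied together. Capitals mark the core of the metal response element, to which Mtf1 binds, searched as TGCACNC and TGCGCNC on both strands. The Mt2 stretch is at chr8:94172368-94172617 and the Mt1 stretch is at chr8:94179054-94179083, both on the plus strand. The Mt1 stretch was cut to 30 bases because it lies inside the RefSeq gene span, which begins at 94178883, ahead of a later start that the promoter table uses.
Mt2: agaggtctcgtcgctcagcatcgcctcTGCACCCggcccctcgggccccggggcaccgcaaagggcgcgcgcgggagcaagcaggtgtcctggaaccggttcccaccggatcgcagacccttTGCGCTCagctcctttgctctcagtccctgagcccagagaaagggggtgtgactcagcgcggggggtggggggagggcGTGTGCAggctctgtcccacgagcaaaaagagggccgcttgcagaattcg
Mt1: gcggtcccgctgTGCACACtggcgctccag
The 250 bases before the Mt2 start hold 3 such cores, a number that 1.26% of all promoter windows reach, and the 250 bases before the start that the table uses for Mt1 hold 1, where 21.4% of windows hold 1 or more. Neither window holds AGAACA or CACGTG. Bases after the starts used were not searched, and the Mt1 start lies inside its RefSeq span. The numbers of cores therefore do not compare the promoters of Mt1 and Mt2. The GENCODE annotation also places an antisense gene, Gm45774, across Mt2, and reads of this pair cannot be told apart either.

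Mt1 had the largest fitted amplitude of the 7 tested members. Young libraries held 375, 489, 183, 25.2, 190 and 62.0 CPM at 4 to 24 h. Old libraries held 489, 177, 208, 19.2, 18.4 and 123 CPM. Of the 11 libraries Young 8 h and Old 4 h were the highest, both ages were low at 16 h, at 26 counts each, and at 20 h the ages parted. The amplitude without Young 4 h was 1.90 ± 0.51 (SE, n = 11), the peak lay at 6.02 ± 0.97 h, and the edgeR adjusted p was 0.00634. With all 12 libraries the adjusted p was 0.35, DESeq2 on the 11 gave 0.255, and leaving out Young 8 h or Old 4 h, the highest libraries of each age among the 11, took the edgeR value to as much as 0.0621. Digestive enzymes took 48.2% of counts in Young 8 h and 49.0% in Old 4 h, the highest shares of each age, against 35.4 to 47.9% in the other 9, and their part in the Mt1 level was not tested.

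Mt2 levels were 74.0, 44.8, 19.6, 3.88, 60.6 and 9.84 CPM in Young. In Old they were 72.6, 16.5, 27.8, 1.47, 3.99 and 24.8 CPM. The lowest library was at 16 h in each age, with 4 counts in Young and 2 in Old, and Young 20 h, with 71 counts, broke the order of its age. The amplitude was 1.41 ± 0.61 (SE, n = 11 without Young 4 h), the peak 4.85 ± 1.48 h, and the edgeR adjusted p 0.282. Of 11 fits that each left out 1 more library, only that without Young 20 h, a library picked out here by its Mt2 level, called Mt2 (edgeR adjusted p = 0.000484, against 0.0592 to 0.797 in the others). DESeq2 and limma-voom did not call it on the 11 libraries (adjusted p = 0.923 and 0.22), and with no filter on low counts edgeR did (adjusted p = 5.98e-08).

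At 20 h Mt1 was 10.4 times and Mt2 15.2 times higher in Young than in Old, a comparison of 1 library with 1 library that has no replicate check. Among 5826 tested genes with 3 or more counts in both of these libraries, 0.12% were at least 5-fold higher in Old and 0.0687% at least 5-fold higher in Young, the latter 4 genes, of which Mt2 and Mt1 had the largest and second largest ratio. The contrast was picked after the values were seen. Digestive enzymes took 41.7% of counts in Young 20 h and 43.0% in Old 20 h, and islet hormone cell markers summed to 569 and 212 CPM, so the islet sum was also higher in Young 20 h, and its part in the contrast was not tested. At 16 h, where both metallothioneins were low in both ages, islet markers had their highest sums of each age, 715 CPM in Young and 768 CPM in Old. At 24 h islet markers had their lowest sums of each age, 34.8 CPM in Young and 41.1 CPM in Old. Mt1 then stood at 62.0 CPM in Young and 123 CPM in Old. A relation between islet sums and metallothionein levels was not tested.

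Across libraries the pair varied together. Over the 11 libraries, log2 CPM of Mt1 and Mt2 had a Pearson r of 0.941 (permutation p = 0.00012) and a Spearman rho of 0.909 (permutation p = 0.00032). This was the only pair tested. The permutations shuffled libraries freely over times and ages, so these p-values do not set a shared time course or shared library composition apart. Without Old 16 h and Old 20 h, the libraries farthest from the Mt1 median, r was 0.901 over 9 libraries. Within Old it was 0.963 over 6 libraries, and with all 12 libraries it was 0.94. The Mt1 share of the summed counts of the pair, not corrected for length, ran from 75.9% in Young 20 h (95% Wilson interval 70.6 to 80.4%) to 91.6% in Young 8 h (89.2 to 93.5%), intervals that do not overlap, and was 92.9% of only 28 counts in Old 16 h. Mt1 and Mt2 resemble each other, and no source used here says how reads that match several genes were treated, so the split between them is uncertain.

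**Figure D2:**
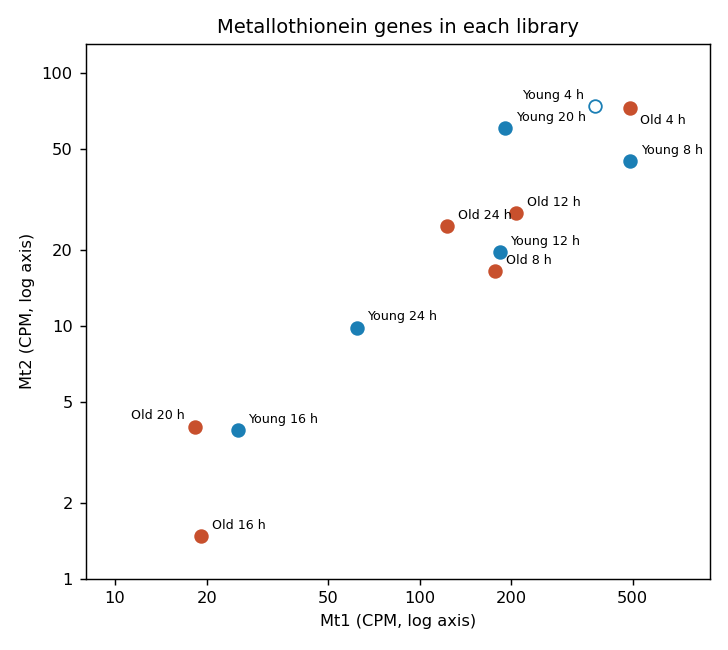
Mt2 against Mt1, both in CPM on log axes, 1 labelled point per library, Young in blue, Old in red-orange and Young 4 h open. Old 16 h, Old 20 h and Young 16 h lie at the low end, Young 8 h and Old 4 h at the high end, and Young 20 h lies above the trend with 60.6 CPM of Mt2.

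Errfi1 encodes MIG6, an inhibitor of the EGF receptor family that glucocorticoids induce. Its reads cannot be told apart from those of an antisense gene across it in GENCODE, 1700045H11Rik, which had 1 count over the 12 libraries. Young libraries held 11.3, 9.96, 11.1, 6.79, 5.97 and 9.08 CPM at 4 to 24 h, and Old libraries 3.56, 6.27, 12.4, 6.64, 7.19 and 7.70 CPM, on 5 to 33 counts. Both 12 h libraries again exceeded the other 9 of the 11, though in Young by 13 counts against 12 at 8 h, and Young 4 h at 11.3 CPM exceeded Young 12 h. Among genes with 10 or more counts over the 11 libraries, 2.83% had this order.

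Pdk4, a kinase that shuts pyruvate out of mitochondrial oxidation in fasting, and Angptl4, a secreted inhibitor of lipoprotein lipase, are induced by glucocorticoids and by PPAR factors, and both were near the floor. Pdk4 had 11 counts in Young 4 h, 1 in Young 12 h, none in the other 4 Young libraries, and 1, 0, 1, 1, 0 and 3 in Old at 4 to 24 h. Angptl4 had 4 counts in Young 4 h, 1 in Young 24 h, 3 in Old 24 h and none in the other 9 libraries. Both had their highest level of the 11 in Old 24 h, 2.57 CPM, where B and T cell markers also had their highest sum, 483 CPM against 4.27 to 114 CPM in the other 10. Macrophage markers (128 CPM), endothelial markers (91.6 CPM) and red blood cell markers (78.7 CPM) also had their highest sum of the 11 there, and adipocyte markers, at 46.2 CPM, their highest of Old. Adipocyte markers summed higher in Young 8 h (83.0 CPM) and Young 16 h (48.5 CPM), where neither Pdk4 nor Angptl4 had a count. The part of these cells in the Pdk4 and Angptl4 counts was not tested, and no curve or fold was fitted. In a library with no count, the floor of 3 counts allows a level of up to 2.14 to 2.91 CPM.

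The order of the fitted peaks set the metallothioneins first. Without Young 4 h the peaks ran from Mt2 at 4.85 h and Mt1 at 6.02 h, through Klf9 at 9.89 h, Zbtb16 at 11.5 h and Fkbp5 at 12.6 h, to Sgk1 at 14.7 h and Tsc22d3 at 16.2 h. Intervals of 1 SE were apart between Mt1 and Klf9 and between Fkbp5 and Sgk1, and overlapped between the other neighbours in this order. The 7 peaks come from the same 11 libraries, and differences between genes were not tested. Klf9 shifted most with Young 4 h included, to 11.2 ± 1.07 h.

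**Figure D3:**
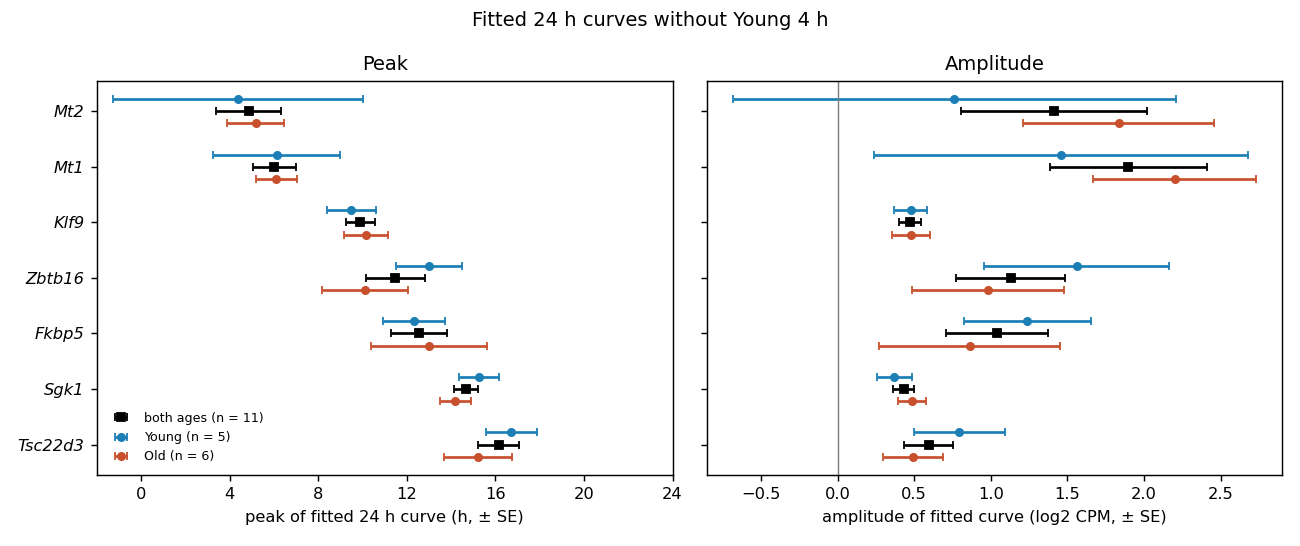
Peak in h (left) and amplitude in log2 CPM (right) of the fitted 24 h curve of the 7 tested members without Young 4 h, with bars of 1 SE, for both ages together (black squares, n = 11), Young (blue, n = 5) and Old (red-orange, n = 6). Mt1 and Mt2 peak earliest and have the largest amplitudes in Old, 2.20 and 1.84, while their Young amplitudes have the widest bars.

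The second question was whether the curves differed between ages. No member was called in the test of the difference on 12 or on 11 libraries, nor was any gene (0.0% of 5808 and 0.0% of 5852), although 274 and 238 genes had an unadjusted p under 0.05. Peaks of the 2 ages were close for Mt1, 6.11 ± 2.86 h in Young (SE, n = 5) and 6.10 ± 0.93 h in Old (n = 6). They were also close for Fkbp5, 12.3 ± 1.41 h and 13 ± 2.62 h. Zbtb16 peaks were farther apart, 13 ± 1.48 h in Young and 10.1 ± 1.94 h in Old, a gap of less than the sum of both errors. Within Old, 1 member was called on the 11 libraries, Mt1 with an edgeR adjusted p of 0.0151, against 0.752% of all genes. That call was lost without Old 4 h, Old 16 h or Old 20 h (edgeR adjusted p = 0.171, 0.196 and 0.210). Within Young no member was called, against 0.171%. Mt1 was called in Young when Young 20 h or Young 24 h was left out, with edgeR amplitudes of 2.53 and 2.44 (adjusted p = 0.00216 and 0.0318). Leaving out Old 8 h called Fkbp5 in Young and in Old (edgeR adjusted p = 0.0253 and 0.0263). Mt2 was called in Old without Young 20 h, Young 24 h, Old 8 h or Old 12 h (edgeR adjusted p = 0.0135 to 0.0438). With no filter on low counts, Mt1, Fkbp5 and Zbtb16 were among 28 genes called in Young. These 3 and Mt2 were among 151 called in Old. On all 12 libraries neither age had a called member, against 0.0517% of genes in Young and 0.0% in Old. DESeq2 did not call Mt1 within Old on the 11 (adjusted p = 0.839). In the fit without Young 4 h, Mt1 amplitude was 1.46 ± 1.22 in Young and 2.20 ± 0.53 in Old, and the edgeR adjusted p of the difference between the ages was 1. With no filter on low counts the difference was called for Mt1 and Mt2 (edgeR adjusted p = 0.0299 and 0.0466).

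The third question was whether levels differed between ages over the day. None of the 7 tested members was called by edgeR, on 11 libraries (0.205% of genes called, 0.137% higher and 0.0684% lower in Old) or on 12 (0.0172%), and none had an unadjusted p under 0.05. On the 11 libraries the log2 change from Young to Old was -0.78 ± 0.40 (SE) for Mt1, with an adjusted p of 0.833 and Old lower at 3 of the 5 times that both ages then have. It was -0.72 ± 0.50 for Mt2, with an adjusted p of 0.905 and Old lower at 3 of 5 times. Both values rest on Young 20 h, without which they were 0.01 and 0.20. With no filter on low counts edgeR called Mt1 lower in Old (adjusted p = 0.000593), while under the other 18 alternatives, leaving out each library included, its adjusted p was 0.589 to 1. For Fkbp5 the change was -0.28 ± 0.33 (adjusted p = 0.963), with Old lower at each of the 5 times. At 20 h this order rests on 13 counts in each age, and at 24 h on 7 in Young and 6 in Old. At 4 h, left out here, Fkbp5 was higher in Old (15.0 against 11.6 CPM). For Zbtb16 the change was -0.28 ± 0.34, for Klf9 -0.13 ± 0.16, for Sgk1 -0.07 ± 0.19 and for Tsc22d3 -0.04 ± 0.23. For the 3 members with too few counts, 2-sided exact permutation tests on log2 CPM over the 11 libraries, not adjusted over the 3, gave a change of -0.27 for Errfi1 (p = 0.307), 0.37 for Pdk4 (p = 0.197) and 0.10 for Angptl4 (p = 1).

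**Figure D4:**
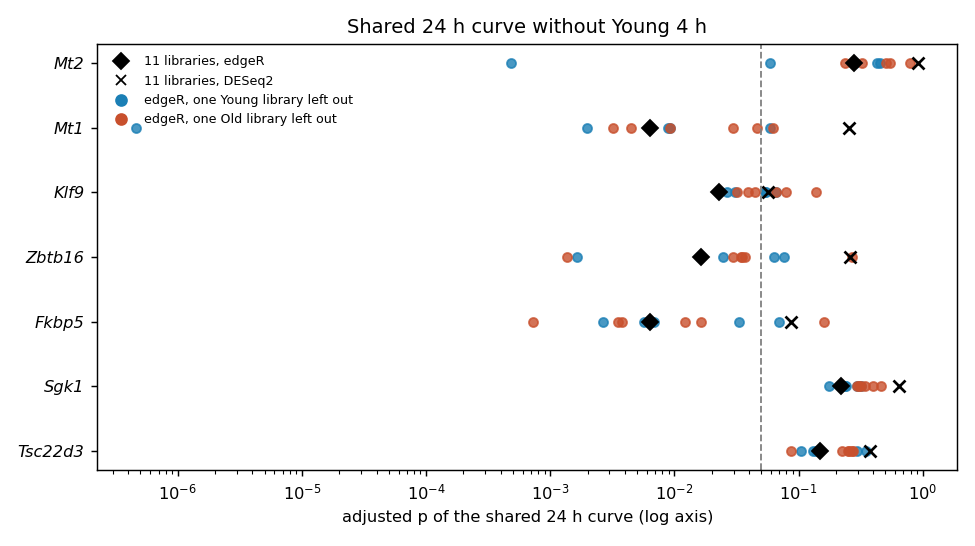
Adjusted p of the shared 24 h curve (log axis) of each tested member on the 11 libraries by edgeR (diamonds) and DESeq2 (crosses), and by edgeR with 1 more library left out (circles, blue for a Young and red-orange for an Old library), with a dashed line at 0.05. Fkbp5, Zbtb16, Klf9 and Mt1 cross the line in 2, 3, 6 and 2 of 11 fits, and Mt2 lies below it in 1, at 0.000484.

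Other genes of the pathway were read from lists, beside 1.49% of all 5852 genes called in the shared curve on the 11 libraries. Of 14 tested genes of the glucocorticoid receptor and its partners, 1 was called in the shared curve on the 11 libraries, Hsp90aa1, a stress-inducible Hsp90 chaperone, with an amplitude of 0.75 ± 0.22, a peak at 17.4 ± 1.03 h and an edgeR adjusted p of 0.014. Over the 11, Hsp90aa1 levels ran from 48.2 CPM in Young 8 h to 235 CPM in Young 16 h, with a median of 97.6 CPM. With all 12 libraries, where Young 4 h held 1114 CPM, Hsp90aa1 was not called (edgeR adjusted p = 0.898). Of 10 tested genes among 28 other glucocorticoid responsive genes, 2 were called, and nothing about the list is read from counts this small. Per1, a core clock gene with glucocorticoid response elements, had an amplitude of 1.71 ± 0.17 and a peak at 11.5 ± 0.42 h (edgeR adjusted p = 5.44e-07). Il6ra, a receptor chain for interleukin 6, had an amplitude of 0.76 ± 0.13 and a peak at 11.4 ± 0.70 h (edgeR adjusted p = 0.0488). Per1, Il6ra and Fkbp5 had their highest level in Young 12 h, and of the 3 only Per1 was called with all 12 libraries (edgeR adjusted p = 0.00117).

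Of 13 tested genes of zinc handling, 1 was called on the 11 libraries, against the same 1.49% of all genes, Slc30a2, a zinc exporter of secretory cells, with an amplitude of 1.14 ± 0.27, a peak at 7.82 ± 0.96 h and an edgeR adjusted p of 0.017. With all 12 libraries Slc30a2 had too few counts to be tested. Its level over the 11 ran from 1.47 CPM in Old 16 h, below the 2.21 CPM that 3 counts equal there. It reached 16.4 CPM in Old 4 h, the time at which Mt1 and Mt2 had their highest level in Old. At 20 h Slc30a2 stood at 1.71 CPM in Young, below the 2.56 CPM that 3 counts equal there, and at 6.39 CPM in Old. Mt1 and Mt2 were higher in Young at that time. None was called among 11 tested fasting and PPAR targets, 16 family relatives of the members and 3 ErbB receptors and ligands. The median edgeR amplitude of the lists was 0.16 to 0.37 against 0.23 over all genes tested and 1.13 over the 7 tested members. No gene of these lists was called for age.

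The genes whose log2 CPM over the 11 libraries was most like that of Fkbp5, among 4718 genes, were Usp33 (Pearson r 0.881), Ptprk (0.87), Slc1a5 (0.836), Ppp6c (0.835) and Ric1 (0.829). Zbtb16 ranked 16 with r = 0.782, and Sgk1, Tsc22d3 and Klf9 had r of 0.639, 0.499 and 0.495. Most like Mt1, after Mt2 is set aside, were Ppp1r9b (0.965), Bcorl1 (0.921), Itgb4 (0.906), Cpt1a (0.895) and Nfix (0.895), and Mt2 ranked 2. Mt1 correlated with Fkbp5 at 0.193, and with Tsc22d3 at -0.56. The 11 points share the depth and composition of their libraries, and the genes named are the highest of many, so these values are a description.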

How the data were processed

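Counts of whole reads per gene symbol were deposited by the authors for 12 libraries of mouse pancreas RNA. STAR and HTSeq, with no version, and the builds GRCm38 and mm10 are named per the submitters' processing notes. The workbook's name refers to featureCounts, so the counter is in doubt, and no source used here gives the annotation, strand setting or handling of reads matching several genes. RNA was extracted with TRIzol and columns and libraries were made with an Illumina mRNA kit, per the labels' protocols.

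Groups and times come from the labels. Of 40840 symbols, 39350 (96.4%) matched RefSeq on GRCm38.p6, including all 10 members, but 665 of 2006 LOC symbols did, so the counting annotation may differ from it. filterByExpr, grouped by age, kept genes with enough counts, and TMM scaled them, with a factor of 1.79 for Young 4 h. Printed levels are CPM of the library total, without TMM. edgeR 4.0.16 (R 4.3.3) fitted age plus a cosine and a sine with a 24 h period, for the shared curve and age, and a curve for each age, for the curves within ages and their difference. Both ages share 1 estimate of spread. Amplitudes and peaks with standard errors are least squares fits to TMM-scaled log2 CPM with a prior count of 2. The metallothionein correlation used 100000 permutations. Alternatives were no filter, a filter of 1 CPM in 6 libraries, RLE factors, TMM factors without digestive enzymes, DESeq2 1.42.0, limma-voom 3.58.1, no time term, collection time as a block, prior counts of 0.5 and 5, and leaving out each library. The fits were also tried on simulated counts with the same spread for every gene and no library like Young 4 h. That trial does not measure their error on these data. No pair of the 66 library pairs agreed within sampling noise, the closest, Young 20 h and Young 24 h, having a chi-square of 2.49 per gene. Wilson intervals (95%) and floors cover counting error only. Sequences and positions are RefSeq's on GRCm38.p6. Zbtb16 and Angptl4 had no promoter entry. Figures used matplotlib 3.10.9 in Python 3.11.15.

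The members, lists, tests and named-gene rule were chosen with earlier results of these data known. The rule named all members, every called gene of a list and, for Fkbp5 and Mt1, the 5 genes with the highest r among those with a mean of 10 CPM or more, passing over predicted genes and other members. From lists without a call it took genes with the highest mean CPM: Ppard (17.3), Fkbp11 (124), Tsc22d1 (33.4), Egf (76.2) and Egfr (15.0). A gene that the rule takes is not reported here.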

Additional observations from a re-analysis of the deposited data

Results flagged for a closer look

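Within an age, 10 of 30 sets of 5 or 6 libraries held a library whose gap to its nearest neighbour was large for the range of the set. Chance flags about 1 in 20 such sets, and values here follow time of day, so a flag can be a peak.

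Fkbp5 stood apart at 12 h, at 62.9 CPM in Young, with or without Young 4 h, where the next library had 16.6 CPM, and at 46.4 CPM in Old, where the next had 15.0 CPM. Zbtb16 stood apart at 43.3 CPM in Old 12 h, above 15.7 CPM. Mt2 stood apart at 72.6 CPM in Old 4 h, above 27.8 CPM. Pdk4 did so in Young 4 h (3.77 CPM, 11 counts), in Young 12 h once Young 4 h was left out (0.851 CPM, 1 count) and in Old 24 h (2.57 CPM, 3 counts). Angptl4 did so in Young 24 h without Young 4 h (0.757 CPM, 1 count) and in Old 24 h (2.57 CPM, 3 counts), and sets that rest on 1 to 3 counts carry no information on level beyond the floor.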

How the results depend on the processing

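Where no library was left out, 131 alternatives kept the result, 32 moved a count by over 1.5 times and 1 changed a sign. These cover counts of genes, counts of members, values of the low members, fitted amplitudes and the metallothionein correlation. An amplitude was kept if it moved by less than the residual spread of its fit. Counted apart, calls of single members were kept in 422 alternatives, gained in 18 and lost in 5, with a changed sign in 3. Limits are 1 library per time and about 1 count per CPM, which leave Errfi1, Pdk4 and Angptl4 without a fitted curve and calls that rest on single libraries. The causes of the changes below were not tested.

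No filter on low counts keeps genes with almost no counts, and called 648 genes (3 members) in the shared curve on 12 libraries and 180 on 11, 67 and 33 (1 member) for age, 113 and 24 (2 members) for the curve difference, 1144 (2 members) and 28 (3 members) in Young, and 14 (1 member) and 151 (4 members) in Old. The stricter filter called 3 genes for age and 50 in Young on 12 libraries, and 2 for the curve difference and 67 in Old on 11. DESeq2 called 40 genes (2 members) in the shared curve, 5 for age, 45 in Young and 4 in Old on 12 libraries, and on 11 it called 4 in Young and 20 in Old, with 0 members in the shared curve and 0 in Old. limma-voom called 27 genes in Old on 11. With no time term 2 genes were called for age on 12.

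Sgk1 for age on 12 libraries changed sign within its error, at 0.0043 with the stricter filter, 0.0016 by limma-voom and 0.00011 with no time term, as did Angptl4 at -0.077 with a prior count of 0.5. With collection time as a block, which pairs the ages by hour and not by animal, 1 gene was called for age on 12 libraries and 11 on 11, with 0 members in both, and no call of a member changed.

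Leaving out each library gave these ranges. On 12 libraries, calls ran from 4 to 87 in the shared curve (0 to 4 members), from 1 to 12 for age, from 2 to 435 in Young (0 to 1 member) and from 0 to 44 in Old (0 to 1 member). On the 11 they ran from 37 to 105 in the shared curve (1 to 5 members), from 5 to 16 for age, from 0 to 4 for the curve difference, from 8 to 21 in Young (0 to 1 member) and from 20 to 78 in Old (0 to 3 members). The log2 change with age on 12 libraries ran from -0.47 to 0.16 for Fkbp5, -0.19 to 0.049 for Tsc22d3, -0.071 to 0.050 for Sgk1, -0.13 to 0.071 for Klf9, -0.44 to 0.079 for Zbtb16, -1.07 to 0.16 for Mt1, -1.18 to 0.25 for Mt2 and -0.23 to 0.12 for Angptl4. On the 11 it ran from -0.60 to 0.11 for Fkbp5, -0.20 to 0.12 for Tsc22d3, -0.66 to 0.073 for Zbtb16, -1.34 to 0.0084 for Mt1, -1.30 to 0.20 for Mt2 and -0.12 to 0.22 for Angptl4. The Mt1 and Mt2 changes turned sign only without Young 20 h, Fkbp5 on the 11 only without Young 12 h and Zbtb16 on the 11 only without Old 16 h. Of other choices, RLE factors and factors without digestive enzymes moved no count of genes or members by over 1.5 times.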

Other observations

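Some glucocorticoid responsive genes outside the 10 shared the order in which both 12 h libraries exceeded the other 9 of the 11, a pattern chosen after the values were seen. Of 22 listed genes with 10 or more counts over the 11 libraries, 4 had it, Per1, Map3k6, Plin4 and Sult1a1, against 2.83% of all 13661 genes with as many counts. Sult1a1, a sulfotransferase, had 12.8 CPM in Young 12 h and 10.0 CPM in Old 12 h and at most 7.77 CPM elsewhere. Plin4, a lipid droplet protein that is also on the adipocyte list, had 15.3 and 9.27 CPM at 12 h and at most 5.12 CPM elsewhere. Map3k6, a stress kinase, had 5.10 and 5.41 CPM, which are 6 and 7 counts, and at most 2.95 CPM elsewhere. Per1 had 64.6 and 60.3 CPM, above 45.5 CPM in Old 8 h and 44.8 CPM in Young 8 h. Of these only Per1 had enough counts to be tested.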
